A study of Mus musculus with 6 samples.

Results

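The peaks described here are those whose nearest annotated gene was Creld1, Mir3076 or Ccl1 in 4 lists of binding sites of NRF2, the transcription factor encoded by Nfe2l2. The members were every peak carrying one of these 3 gene names, at any distance from the transcription start site (TSS), which gave 15 of the 16057 peaks in the 4 lists. The 15 peaks formed 5 sites, namely a main site at each gene that was present in every list, a second Creld1 site and a second Ccl1 site. The 3 genes had been chosen by the score ranks of their main sites, near the top of every list, and by their presence in all of them. The ranks and the presence in 4 lists given below therefore describe that choice and support nothing by themselves.

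The assay was ChIP-seq, the sequencing of DNA that is pulled down with an antibody to NRF2, in mouse embryonic fibroblasts (MEFs), connective tissue cells grown from embryos, of strain 129S6/SvEvTac. The 4 libraries came from GCN2-/- (GCN2 KO) MEFs after 24 h without leucine, GCN2 KO MEFs after 24 h in complete DMEM, wild-type (WT) MEFs after 24 h without leucine and WT MEFs after 24 h in complete DMEM. GCN2 is the kinase that senses uncharged tRNA when amino acids run short, and an NRF2 peak list does not measure its loss. With 1 library per condition, nothing below could be checked against replicates or given a p-value, and the depth of each library is unknown. The GCN2 KO lists held 4600 peaks without leucine and 3141 in complete medium, and the WT lists 5980 without leucine and 2336 in complete medium. A site that a list lacks may still have been bound below the threshold for calling peaks. Coordinates are those of the mm10 build.

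NRF2 is held at low levels by KEAP1, which marks it for degradation. When stress releases it, it pairs with a small Maf protein and binds antioxidant response elements near genes for glutathione synthesis, thioredoxin and peroxiredoxin enzymes, iron storage and NADPH supply. None of the 3 gene names belongs to this programme. Creld1 encodes a membrane protein with EGF-like domains that is needed for heart valve and septum development. Ccl1 encodes a chemokine that attracts cells bearing the receptor CCR8, and Mir3076 is a microRNA gene.

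The name Mir3076 did not describe where its peak lay. In all 4 lists the window was annotated to intron 4 of 13 of the transcript NM_009388, which the RefSeq table assigns to Tkt. Tkt encodes transketolase, an enzyme of the non-oxidative pentose phosphate pathway, the pathway that also supplies NADPH for antioxidant enzymes, and NRF2 is known to raise its expression in human cancer cells. By its host gene, the site lay within the metabolism that NRF2 is known to serve, against the working description of these sites as lying outside antioxidant genes. Mir3076 itself is a short hairpin gene at chr14:30572149-30572208, inside the span of Tkt (chr14:30549131-30574724), and the peak took its name because the hairpin's start was nearer than the Tkt TSS. A mature microRNA of that hairpin, its -3p product, is shown to identify the gene whose name the peak carries. The seed (bases 2 to 8) is in capitals, and the sequence is from RefSeq on GRCm38.p6, the same assembly as mm10.
mmu-miR-3076-3p: cGCACUCUggucuucccuugcag
Its 23 bases lie at chr14:30572185-30572207 on the plus strand. That table holds 1679 mature mouse sequences, and no other one shared its seed.

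The Mir3076 site within Tkt had a score of 1038 (rank 4 of 4600) in GCN2 KO cells without leucine, 757 (rank 4 of 3141) in GCN2 KO cells in complete medium, 817 (rank 10 of 5980) in WT cells without leucine and 561 (rank 17 of 2336) in WT cells in complete medium. By rank it stood nearer the top of both KO lists than of both WT lists, as did the Creld1 site described below. The score is the authors' whole number for each peak, and rank 1 is the highest score of a list. Scores and ranks are read within a list, since lists that differ in length and depth give no measure of gained or lost binding. The windows were chr14:30564474-30564774 and chr14:30564465-30564765 in GCN2 KO cells without leucine and in complete medium, and chr14:30564463-30564763 and chr14:30564459-30564759 in WT cells without leucine and in complete medium. Their centres lay 15493, 15484, 15482 and 15478 bp downstream of the Tkt TSS in the same order of libraries, and from -7540 to -7525 bp relative to the Mir3076 TSS. Within 50 kb, RefSeq also lists the protein-coding genes Prkcd and Dcp1a. The only further peak in that range was a low one assigned to Tkt at -23666 bp, in GCN2 KO cells in complete medium (score 29, rank 1975 of 3141). It was annotated to the 3' UTR of the transcript NM_133761, and its window lay within the span of Dcp1a. No list held a peak at the Tkt TSS.

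Assignment of an intronic peak to a gene other than its host was common in these lists. Of intron windows with a host transcript in the RefSeq table, 605 of 1854 in GCN2 KO without leucine (32.6%), 457 of 1375 in GCN2 KO in complete medium (33.2%), 874 of 2628 in WT without leucine (33.3%) and 338 of 1027 in WT in complete medium (32.9%) lay in a transcript of another gene than the one named. Windows named for a numbered Mir gene were counted on another base, namely all such windows, intergenic ones included. Those lying in an intron of another gene were 83 of 174 (47.7%) in GCN2 KO without leucine and 57 of 137 (41.6%) in GCN2 KO in complete medium. In WT they were 120 of 245 (49%) without leucine and 42 of 91 (46.2%) in complete medium. Lying in an intron of another gene, as at Mir3076, was thus frequent among microRNA-named peaks. These shares are not comparable with those of intron windows above.

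The Creld1 site had a score of 1111 (rank 2 of 4600) in GCN2 KO cells without leucine, 772 (rank 3 of 3141) in GCN2 KO cells in complete medium, 1071 (rank 5 of 5980) in WT cells without leucine and 1000 (rank 5 of 2336) in WT cells in complete medium. Of the 3 main sites, this alone stood within the first 5 ranks of every list. The window lay in intron 2 of 9 of Creld1 (transcript NM_133930), at chr6:113487300-113487600, chr6:113487314-113487614, chr6:113487299-113487599 and chr6:113487314-113487614 in that order of libraries. The 2 complete-medium windows were identical, and the 2 windows without leucine differed by 1 bp. The centres were 3881, 3895, 3880 and 3895 bp downstream of the Creld1 TSS in the authors' annotation, and the GRCm38.p6 table places that TSS 213 bp further upstream. Creld1 spans 9988 bp, and the neighbouring genes are Il17rc, a receptor subunit for interleukin-17, 4294 bp from the middle of the site, and Prrt3, at 6181 bp.

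Each window of the main Creld1 site was annotated to L1MB5, an old subfamily of the LINE-1 retrotransposons. Windows annotated to a LINE made up 343 of 4600 peaks (7.46%) in GCN2 KO without leucine, 163 of 3141 (5.19%) in GCN2 KO in complete medium, 366 of 5980 (6.12%) in WT without leucine and 123 of 2336 (5.27%) in WT in complete medium. The Creld1 window was the best ranked of them in every list. The next LINE window stood at rank 31 in GCN2 KO without leucine, 43 in GCN2 KO in complete medium, 24 in WT without leucine and 25 in WT in complete medium, assigned to Il1r2 in the first 3 of these lists and to Gm5086 in the last. No other window was annotated to L1MB5 in 3 of the lists, and WT without leucine held 1 more, near Shank2. The labels and headers do not say how reads with several matches in the genome were treated, and the part of such reads in these scores was not tested.

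A second Creld1 peak was present in WT cells without leucine alone, in intron 5 of 9 at chr6:113489475-113489775, 6056 bp downstream of the TSS. Its score was 30 and its rank 2557 of 5980, with 30 also the middle score of that list. Regions found in that list alone made up 5226 of the 14390 merged regions (36.3%), so its absence from the other lists is the commonest pattern in the series. A peak of similar score in the same list (31, rank 2486) lay 9767 bp from the middle of the main site, in intron 2 of 3 of Prrt3.

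The Ccl1 site had a score of 542 (rank 13 of 4600) in GCN2 KO cells without leucine, 599 (rank 8 of 3141) in GCN2 KO cells in complete medium, 739 (rank 12 of 5980) in WT cells without leucine and 574 (rank 16 of 2336) in WT cells in complete medium. Its ranks in the KO lists were 8 and 13 and in the WT lists 12 and 16, so they overlapped between genotypes. The windows were chr11:82174886-82175186 and chr11:82174880-82175180 in GCN2 KO cells without leucine and in complete medium, and chr11:82174876-82175176 and chr11:82174898-82175198 in WT cells without leucine and in complete medium, all intergenic and outside annotated repeats. Ccl1 lies on the minus strand at chr11:82176666-82179812, so the centres were 4776, 4782, 4786 and 4764 bp downstream of the TSS, beyond the 3' end of the gene. The gap between the window and that end was 1480, 1486, 1490 and 1468 bp. Ccl1 was the only RefSeq gene within 50 kb of the site. Over the span of the chemokine cluster from Ccl2 to Ccl1, which also holds Ccl7, Ccl11, Ccl12 and Ccl8 (chr11:82035577-82179812), no list held a peak other than this one.

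A second Ccl1 site lay on the other side of the gene and was found in both WT lists and in neither KO list. In WT cells without leucine it was at chr11:82194968-82195268, -15306 bp relative to the TSS, with a score of 74 and rank 463 of 5980. In complete medium, WT cells had it at chr11:82194902-82195202, -15240 bp relative to the TSS, with a score of 40 and rank 985 of 2336. The 2 windows overlapped by 235 bp, and their centres were 66 bp apart. Regions in both WT lists and neither KO list numbered 149 of 14390 (1.04%). With 1 library per condition, genotype and library cannot be told apart there.

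**Figure D1:**
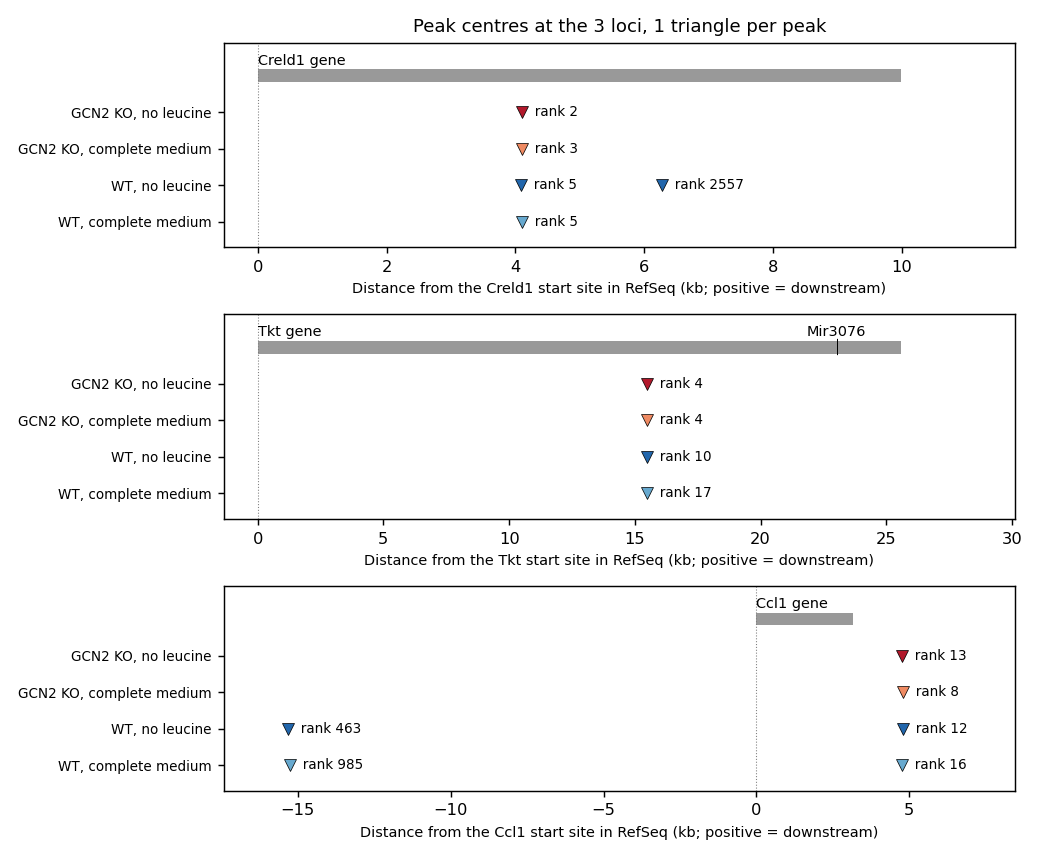
Peak centres (triangles, coloured by library) at Creld1, at Tkt with the Mir3076 hairpin marked, and at Ccl1, against distance from the RefSeq start site of the gene drawn as a grey bar (kb); the number beside each triangle is the score rank within that list. The centres of each main site lie within 22 bp of each other over the 4 libraries, while the intron 5 peak of Creld1 is in WT without leucine alone and the upstream Ccl1 peak is in the 2 WT libraries.

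Leucine withdrawal in GCN2 KO and in WT cells, and GCN2 KO against WT in each medium, make 4 comparisons of lists. In each of them both lists held all 3 main sites, which the choice of members fixed. Of the merged regions of either list, both lists held 431 of 7309 (5.9%) for GCN2 KO without leucine and in complete medium, 536 of 7776 (6.89%) for WT without leucine and in complete medium, 476 of 10099 (4.71%) for GCN2 KO and WT without leucine, and 365 of 5112 (7.14%) for GCN2 KO and WT in complete medium. The second Creld1 peak entered the WT comparison as a site without leucine alone, as did 5440 of 5976 regions of that list (91%). The second Ccl1 site was in both media in WT cells. It was missing from the KO list in both genotype comparisons, as were 5500 of 5976 WT regions without leucine (92%) and 1971 of 2336 in complete medium (84.4%).

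What the choice of members did not use was the exact position of the centre, and this moved by at most 22 bp between libraries. Over the 4 lists the outermost centres were 15 bp apart at Creld1, 15 bp at the Mir3076 site and 22 bp at Ccl1. Over all 256 merged regions that were present in the 4 lists (1.78% of 14390) the middle value was 42 bp, and 20, 20 and 44 of them had a spread at or below that of Creld1, Mir3076 and Ccl1. The 20 of these regions with the best mean rank had spreads from 9 to 58 bp with a middle value of 24.5 bp. The 3 sites are themselves among these 20, and each count at or below includes the site itself. They were below the middle value of the shared regions, as was the middle value of the 20 best-ranked. In the leucine comparisons the centre without leucine minus that in complete medium was -14 bp in GCN2 KO and -15 bp in WT at Creld1, 9 bp in GCN2 KO and 4 bp in WT at Mir3076, and 6 bp in GCN2 KO and -22 bp in WT at Ccl1.

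**Figure D2:**
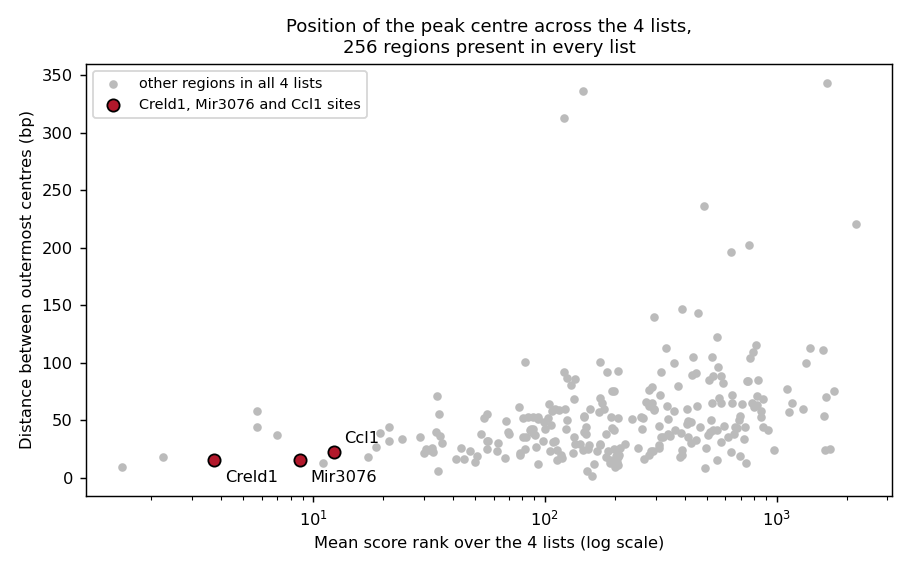
Distance between the outermost peak centres over the 4 lists (vertical axis, bp) against the mean score rank (horizontal axis, log scale) for the 256 regions present in every list, 1 point per region. The Creld1, Mir3076 and Ccl1 sites (red) lie at 15, 15 and 22 bp, below the middle value of 42 bp, at the left end of the plot.

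Base content differed among the 3 main sites, and the second Creld1 and Ccl1 sites are left out of this description. The Creld1 windows had a GC content of 47.5% in GCN2 KO without leucine, 48.2% in GCN2 KO in complete medium, 47.8% in WT without leucine and 48.2% in WT in complete medium. Those at Mir3076 had 55.8%, 54.8%, 55.1% and 55.1%, and those at Ccl1 52.2%, 52.5%, 52.5% and 53.2%, in the same order. The lists themselves had middle values of 51.8%, 52.2%, 52.0% and 51.2%, so Creld1 lay below them and Mir3076 and Ccl1 above them in every library, Ccl1 by a smaller margin. CpG dinucleotides numbered 4 in each main Creld1 window, 2 in each Mir3076 window and 2 or 3 in the main Ccl1 windows. The middle value was 4 in each of the 4 lists. Creld1 was thus at the middle value, and the other 2 sites were below it. The 20 shared regions with the best mean rank had 6.5 per window as their middle value and up to 45, against 4 over all 256. These 20 include the 3 main sites. None of the 20 had fewer CpG dinucleotides than the Mir3076 site, and the D630024D03Rik site had equally few. Fewer than at Ccl1 were found at 3, Mir3076 among them, and fewer than at Creld1 at 6, Mir3076 and Ccl1 among them. The window upstream of Gclc, at place 9 by mean rank, was the richest of the 20.

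**Figure D3:**
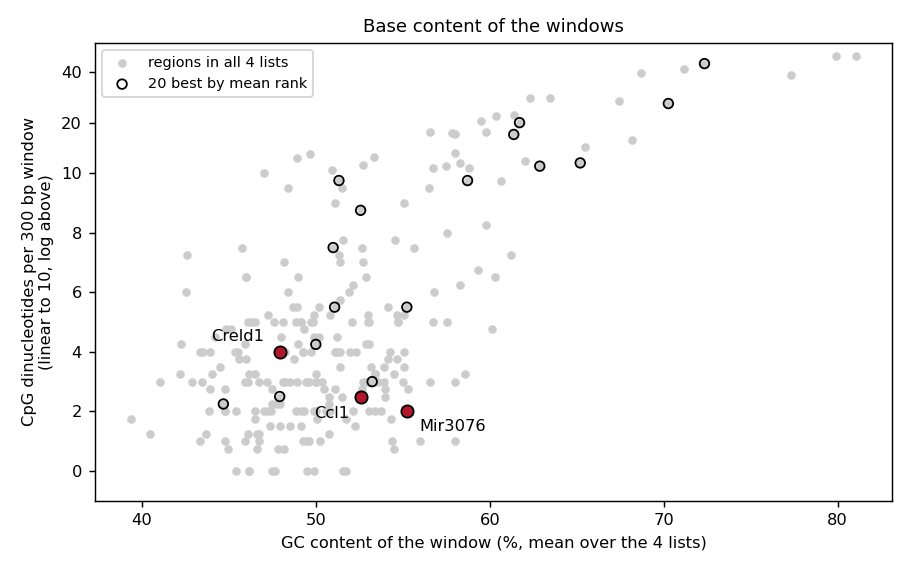
CpG dinucleotides per window (vertical axis, linear to 10 and log above) against GC content (horizontal axis, %) for the 256 shared regions, each the mean over 4 lists, with the 20 of best mean rank ringed. Creld1 (4) lies at the middle value of the 256 regions, Ccl1 (2.5) and Mir3076 (2) lie below it, and the ringed regions reach 45.

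The ranks of these sites were set beside those of 9 other genes with a peak within 10 kb. These were Ftl1, a ferritin subunit that stores iron, Gclc and Gclm, the subunits of the enzyme that starts glutathione synthesis, the peroxiredoxin Prdx1, the thioredoxin reductase Txnrd1, the heme oxygenase Hmox1, the heme transporter Slc48a1, the quinone reductase Nqo1 and Brd2, a bromodomain protein that is no antioxidant enzyme. In GCN2 KO cells without leucine both Creld1 and Mir3076 ranked above all 8 of these genes that had a peak, and 3 of the 8 (Ftl1, Prdx1 and Brd2) stood above Ccl1. In GCN2 KO cells in complete medium Ftl1 alone, of 8, stood above Creld1, above Mir3076 and above Ccl1. In WT cells without leucine 2 of 9 stood above Creld1 and 4 of 9 above Mir3076 and above Ccl1. In WT cells in complete medium 2 of 9 stood above Creld1 and 5 of 9 above Mir3076 and above Ccl1.

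The other genes differed in their order over the libraries. Gclc ranked 23 in GCN2 KO without leucine, 15 in GCN2 KO in complete medium, 6 in WT without leucine and 4 in WT in complete medium, the opposite genotype order to that at Mir3076. Slc48a1 ranked 40, 29, 8 and 8 in the same order, and Txnrd1 422, 59, 18 and 27. Nqo1 ranked 670, 452, 363 and 2188, Hmox1 14, 14, 13 and 82, and Prdx1 12, 34, 17 and 12. Ftl1, at 5, 1, 1 and 2, and Brd2, at 9, 9, 4 and 6, stayed within the first 9 ranks of every list. The site at D630024D03Rik, at 3, 6, 9 and 26, stood nearer the top of both KO lists than of both WT lists, as did Creld1 and Mir3076. Further shared regions had this order of ranks, among them those at Krt9 (6, 12, 90 and 30) and Prdx6 (27, 23, 96 and 210). The order was thus not particular to these sites, and Gclc, Slc48a1 and Txnrd1 had the opposite one. Gclm had a peak within 10 kb in the WT lists alone. Among the 256 shared regions, a set of equal size in each list, Creld1 was placed 2, 3, 5 and 5, Mir3076 4, 4, 10 and 17, and Ccl1 13, 8, 12 and 16. These places equalled the ranks in the full lists, so no region missing from another list stood above any of the 3 sites.

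**Figure D4:**
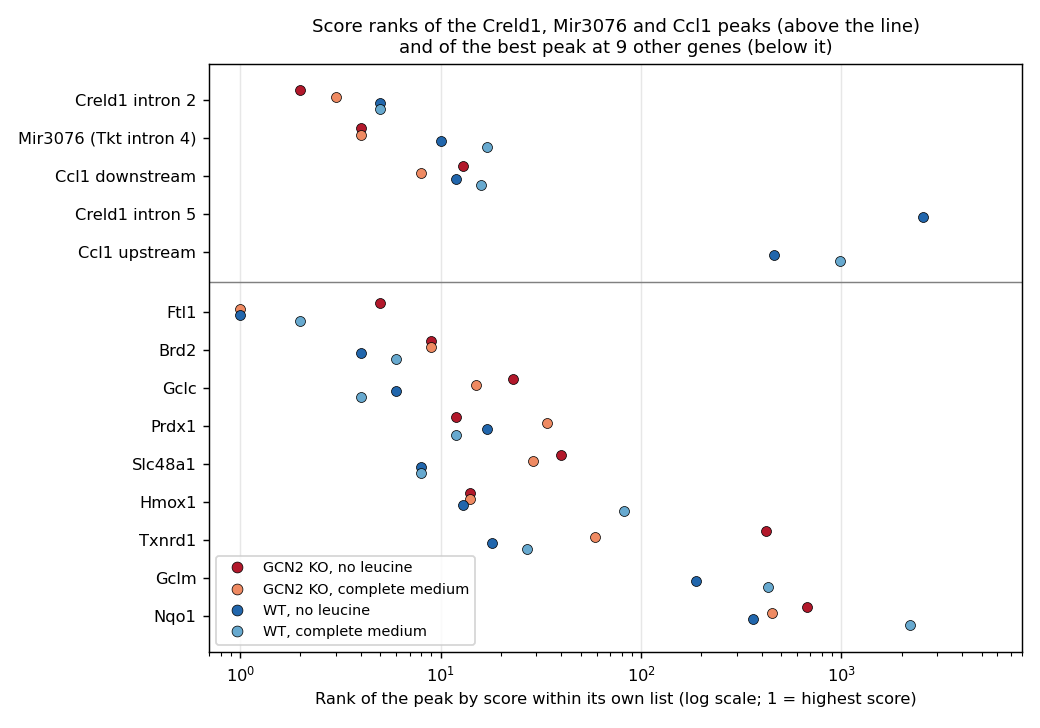
Score rank within each list (horizontal axis, log scale, 1 = highest score) of the 5 sites at Creld1, Mir3076 and Ccl1 (above the line) and of the best peak within 10 kb at 9 other genes (below it), 1 point per library. The 3 main sites lie between ranks 2 and 17 in all libraries, while Gclc, Slc48a1 and Txnrd1 stand further right in the KO libraries than in the WT libraries.

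By mean rank over the 4 lists, Creld1 was at place 3 of the 256 shared regions (mean rank 3.75), Mir3076 was at place 7 (8.75) and Ccl1 at place 10 (12.25). Likeness of pattern was measured as the mean absolute difference, over the 4 lists, in rank as a percentage of list length. The sites most like Creld1 were those at Rxra, a nuclear receptor gene (0.0687 percentage points), A530013C23Rik (0.0783) and Ftl1 (0.0811). The Rxra site, in intron 2 of 9 and 29865 bp from the TSS in WT in complete medium, ranked 1, 2, 2 and 1 in the order of libraries used above. The sites most like Mir3076 were those at Ccl1 (0.0998), D630024D03Rik (0.122) and A530013C23Rik (0.166). Those most like Ccl1 were Mir3076 (0.0998), Brd2 (0.170) and Gstp2, a glutathione transferase gene (0.176). All of these sites were near the top of every list, where differences in percentage points are small for any pair.

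Relatives of the protein-coding members were examined in a list of 15 genes of CRELD proteins and endoplasmic reticulum chaperones and in a list of 30 CC chemokines and their receptors. Apart from Creld1, 1 of 14 genes of the first list had a peak within 10 kb in GCN2 KO without leucine (Pdia6, a protein disulfide isomerase, rank 2004), 1 of 14 in GCN2 KO in complete medium (Creld2, in intron 6 of 9, rank 2017) and 0 of 14 in either WT list. Over 21900 protein-coding genes the share with such a peak was 4.03% in GCN2 KO without leucine, 3.03% in GCN2 KO in complete medium, 6.17% in WT without leucine and 2.28% in WT in complete medium. Apart from Ccl1, 2 of 29 chemokine and receptor genes had a peak within 10 kb in GCN2 KO without leucine (Ccl22 and Ccl26), 2 of 29 in GCN2 KO in complete medium (Ccl28 and Ccr4), 2 of 29 in WT without leucine (Ccl22 and Ccl24) and 0 of 29 in WT in complete medium. No gene of either list other than Creld1 and Ccl1 had a peak within 10 kb in all 4 lists. These 2 genes had been chosen for their presence in every list. Of the 256 shared regions, 96 lay within 10 kb of the assigned TSS in every list, beside 21900 protein-coding genes. Few genes of any kind had such a site, so the lack of others says little about these gene lists. At greater distance, a merged region assigned to Ccr1, a receptor for other CC chemokines, held a peak from all 4 lists. It lay 38100 bp from the TSS in GCN2 KO without leucine, with ranks 4468, 1114, 432 and 592, and its outermost centres were 343 bp apart. The WT window without leucine overlapped neither complete-medium window. It was joined to them only through the GCN2 KO window without leucine, so the 4 windows shared no common stretch.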

How the data were processed

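NRF2 ChIP-seq libraries were sequenced as 50 bp single reads, per the labels' protocols. BWA 0.7.12, MACS2 2.1.0 and HOMER 4.7 on mm10 are named in the submitters' processing notes, and their settings are not given in the sources used here. Each library had its own peak calls, made against its genotype's input from complete medium, also where leucine was lacking. HOMER annotated them as windows 300 bp wide, per the file headers. The 2 input samples had no file used here. The peak score is a whole number deposited by the authors, 13 or more in every list, whose origin in the caller is not stated. CpG and GC content were deposited by the authors as a fraction of the window and are given here as dinucleotides per window and as percent.

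Peaks overlapping by at least 1 bp were merged into regions, and a region's rank in a list is that of its best peak, ties taking the best rank. Host transcripts, gene spans and TSSs came from RefSeq on GRCm38.p6. The linking step was tested on simulated data. Python 3.11.15 with pandas 2.3.3, numpy 2.4.6 and matplotlib 3.10.9 was used. Named genes were the members, host genes, 9 rank landmarks, the 3 regions most like each member, and genes with a peak in 2 related gene lists. Members and lists were chosen with earlier results of these data known. Motif searches in the windows were not run, because no genome was used here. Alternatives were other overlap rules, higher-scoring or equal-length lists, other treatment of ties and other sets of peaks to rank among.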

Additional observations from a re-analysis of the deposited data

How the results depend on the processing

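All 3 main sites stayed in 4 lists, and in both lists of every comparison, under a reciprocal overlap of 50%, centres within 100 bp, windows widened by 500 bp, lists reduced to their higher-scoring 50% or to 2336 peaks each, and main chromosomes without satellite, simple repeat and low complexity windows. The ranks of the main sites, from 2 to 17, and their centres, at most 22 bp apart, fixed this outcome in advance, so it supports nothing. Regions in all 4 lists numbered 219 to 258 under these settings, against 256. The second Creld1 site was lost (0 lists) in the higher-scoring 50% and at equal lengths, and the second Ccl1 site kept its 2 lists. Ranks moved by no more than 1.5 times with ties taking the worst rank or on main chromosomes. Among peaks within 10 kb of a TSS, 5 of 12 ranks moved further, since fewer peaks were ranked. Creld1 was then 1 in GCN2 KO without leucine and 3 in WT without leucine, Mir3076 was 2 in GCN2 KO without leucine, and Ccl1 was 8 in GCN2 KO without leucine and 5 in GCN2 KO in complete medium. The motif alternatives were not run. No paired analysis was possible because the labels give no replicates to pair within a condition and no result here comes from a test. Unknown read depth limits every statement on absence from a list.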
